A study of Oryza sativa with 12 samples.

Results

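The heat shock proteins and heat shock factors of the rice root were followed in the hybrid Xieyou9308 and both of its parents. Members were the annotated transcripts whose deposited description contains the words heat shock, in any case, and 196 of the 42081 transcripts in the table fitted this rule, at 153 of 34791 loci. By their descriptions they fell into 39 small heat shock proteins, 35 of the HSP70 class, 16 of the HSP90 class, 5 of the HSP101 class, 19 heat shock factors, 68 DnaJ (HSP40) proteins and 14 others, mainly co-chaperones and factor-binding proteins. Transcript levels were measured by RNA-Seq of poly-A RNA from roots. The genotypes were Xieyou9308, a widely planted F1 hybrid, its maternal parent Xieqingzao B, and its paternal parent R9308. Each was sampled at the heading stage and at the tillering stage, with 2 roots per genotype and stage and 1 library per root, which gives 12 libraries in 6 groups. All plants were sown in a field and later moved to a pool of nutrient solution, and no heat treatment is given for any group. The comparisons were the hybrid with each parent, Xieqingzao B with R9308, and heading with tillering. Because the 2 roots of a group are its only replicates, every p-value measures the spread between these roots, and roots of one pool may share more than separate growths would.

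Heat shock proteins are molecular chaperones, which hold, fold or disaggregate other proteins, and many of them are also needed without heat. In the HSP70 cycle a DnaJ protein hands over a client and stimulates ATP hydrolysis, HSP90 acts later on partly folded clients, HSP101 pulls proteins out of aggregates together with HSP70, and small heat shock proteins bind unfolding proteins without ATP. Heat shock factors are transcription factors that bind heat shock elements in the promoters of such genes, and plants hold many of them.

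Assigned counts per library lay between 8209696 and 15830233. In whole roots, fewer cells of a type and less RNA per cell cannot be told apart. The root genes Lsi1 and Lsi2, silicon transporters, and RCc3 were detected in every library, with RPKM (counts scaled by transcript length and library sum) from 59.6 to 934 for Lsi1, from 24.9 to 734 for Lsi2 and from 6.41 to 972 for RCc3. All 6 heading libraries were above the 6 tillering libraries for Lsi1 and Lsi2, and below them for RCc3, so these root markers moved with the stage, and their part in the stage differences given here was not tested. The summed RPKM of 31 leaf marker transcripts was 5724 in replicate 1 of R9308 at tillering, against 4.80 to 312 in the other 11 libraries. The hybrid libraries at tillering differed most from each other, with 34.5% of the heat shock transcripts tested there at least 2-fold apart, beside 41.3% of all transcripts tested. Class sums are given for each library, and results without replicate 1 of R9308 or a hybrid library at tillering are given as well.

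Levels differed widely between members. Over the 12 libraries, 83 members had a mean RPKM of at least 10 and 56 had less than 1, with a median of 6.25 beside 2.49 over all transcripts. Among the members, 6 had no count in any library and 20, these included, had fewer than 10 counts in all. The small heat shock proteins were the lowest class, with a median of 0.689 RPKM and 21 of 39 transcripts under 1, whereas HSP90 had a median of 31.7. A few transcripts made up most of the chaperone RNA. Os11t0703900-01, an HSP70 encoded on chromosome 11, averaged 2362 RPKM and held 60.9% of the HSP70 sum, and together with Os03t0276500-01, an HSP70 on chromosome 3 with 825 RPKM, 82.2%. Os09t0482100-01, described as similar to heat shock protein 82 and so of the HSP90 class, averaged 856 RPKM and held 47.7% of the HSP90 sum. By contrast, the most abundant heat shock factor, Os09t0456800-01, averaged 54.8 RPKM, and the most abundant HSP101 transcript, Os03t0426900-01, averaged 9.84 RPKM. RSEM divides reads among similar transcripts, and 5 members carried counts identical to those of another locus in every library. These were 3 DnaJ transcripts (Os05t0333500-01, Os05t0334000-01 and Os05t0334400-01) and the HSP90 pair Os09t0482400-03 and Os09t0482600-02, whose separate levels are therefore uncertain.

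The class sums moved differently with stage and genotype. The HSP70 sum was 4974 and 5553 RPKM in the hybrid at heading, against 3726 and 2969.8 at tillering. In Xieqingzao B it was 5198 and 3221 at heading, against 1981 and 1904 at tillering. In R9308 it was 6066 and 7488 at heading, against 1714 and 1734 at tillering. Within each genotype both heading libraries were thus above both tillering libraries, by ratios of group means of 1.57 in the hybrid, 2.17 in Xieqingzao B and 3.93 in R9308. Most HSP70 transcripts of the hybrid did not follow the sum. Of 24 tested, 6 had a log2 fold change above 0 in the hybrid (median -0.52), against 16 in Xieqingzao B (median 0.22) and 18 in R9308 (median 0.71). The HSP90 sum followed no such common order. It was lower at heading in the hybrid, with 1505 and 1498 RPKM against 2567 and 2247 at tillering, and higher at heading in R9308, with 1499 and 2229 against 946 and 1129 at tillering. In Xieqingzao B the heading libraries (2814 and 1752) and tillering libraries (1612 and 1762) overlapped. At tillering the hybrid had the highest HSP70 and HSP90 sums of the 3 genotypes, without overlap with either parent: its mean was 1.72 times that of Xieqingzao B and 1.94 times that of R9308 for HSP70, and 1.43 and 2.32 times for HSP90. The summed heat shock factors were above tillering at heading in each genotype. They had 393 and 363 RPKM against 353 and 173 in the hybrid. In Xieqingzao B they had 272 and 304 against 212 and 215, and in R9308 444 and 375 against 244 and 213. The ratios were 1.44 in the hybrid, 1.35 in Xieqingzao B and 1.79 in R9308, and that of the hybrid rests on its low replicate 2 at tillering. In R9308, summed small heat shock proteins lay below tillering at heading (179 and 148 against 286 and 203), as in the hybrid (192 and 181 against 291 and 236), but overlapped in Xieqingzao B. The HSP70 and HSP90 sums rest on the abundant transcripts named above, while the most abundant factor held 18.5% of the factor sum and the most abundant small heat shock protein 18.6% of its class. The sums carry no test.

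**Figure D1:**
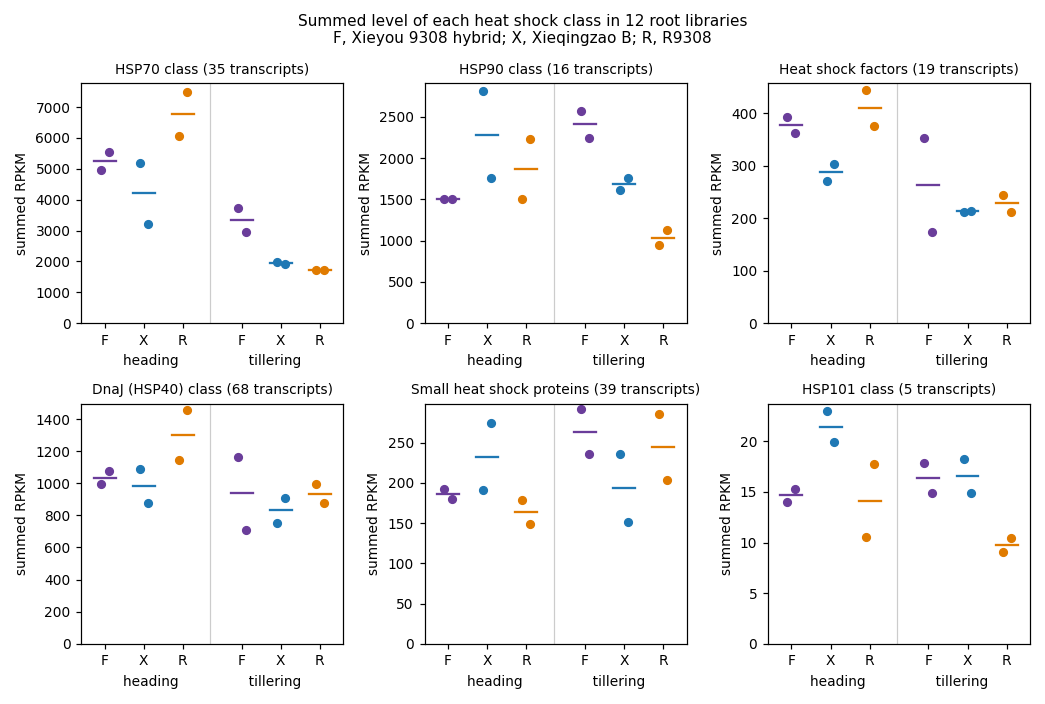
Summed RPKM of 6 classes of heat shock transcripts in each of the 12 libraries (points) with group means (lines), for the hybrid (F), Xieqingzao B (X) and R9308 (R) at heading and tillering. The HSP70 sum was higher at heading in each genotype, and the HSP90 sum was 1505 and 1498 RPKM in the hybrid at heading, against 2567 and 2247 at tillering.

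Averaged over the 3 genotypes, 5 heat shock factors and 5 HSP70 transcripts were called higher at heading than at tillering, and 3 small heat shock proteins were called lower. Calls were made with edgeR's quasi-likelihood test where the p-value, adjusted by Benjamini-Hochberg over all transcripts tested, was at most 0.05 and the difference 2-fold or more. Of 153 members tested, 12 rose and 7 fell, which is 12.4%, beside 11.2% of all 29560 transcripts tested (4.02% higher and 7.18% lower), so the share of heat shock transcripts with a stage difference was close to the background. Of 19 factors tested, 5 rose and 0 fell. Of 24 HSP70 transcripts, 5 rose and 1 fell. Of 20 small heat shock proteins, 0 rose and 3 fell, and 0 of the 11 HSP90 transcripts passed, nor did any at an unadjusted p under 0.05 with a 2-fold difference (18.2% of all transcripts) or with DESeq2. DESeq2 called 6 factors higher and 1 lower, and 4 small heat shock proteins lower. The median log2 fold change was 0.37 for the factors, 0.04 for HSP70, 0.21 for HSP90, 0.09 for DnaJ and -1.05 for small heat shock proteins, beside -0.04 over all transcripts. Without replicate 1 of the hybrid at tillering, 30 members were called, and without R9308 replicate 1 at tillering, the library with leaf transcripts, 19. The fewest, 10, were called without replicate 2 of the hybrid at heading.

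**Figure D2:**
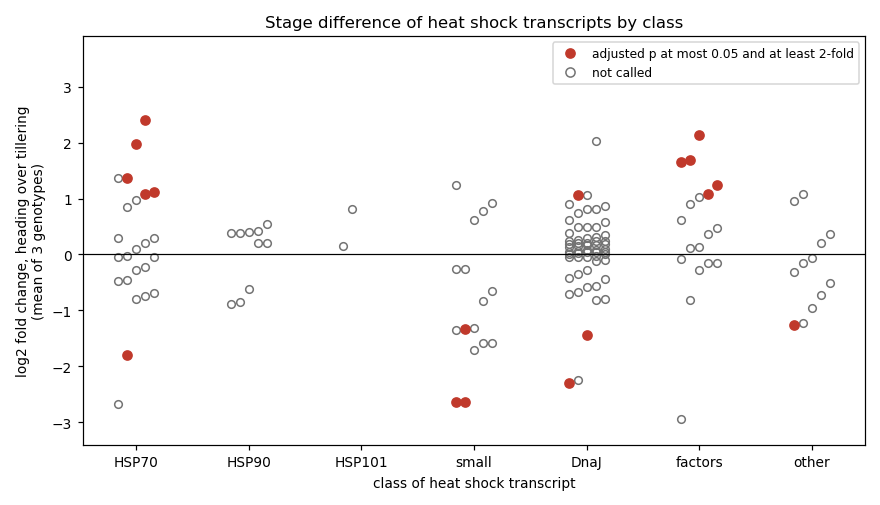
Log2 fold change of heading over tillering, averaged over the 3 genotypes, for 141 heat shock transcripts by class; filled red points passed the test and open points did not. Another 12 tested transcripts with no counts in both libraries of some group are left out. The 5 factors that passed lie above 0 and the 3 small heat shock proteins that passed lie below 0.

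Among the HSP70 transcripts, both of the abundant ones rose. Os11t0703900-01 had 2437 and 3039 RPKM in the hybrid, 3925 and 1583 in Xieqingzao B and 3767 and 5472 in R9308 at heading. At tillering it had 2162 and 1627 in the hybrid, 993 and 1043 in Xieqingzao B and 1150.2 and 1152 in R9308. The stages did not overlap within any genotype, but one heading library of Xieqingzao B lay below both tillering libraries of the hybrid. The log2 fold change over genotypes was 1.37 (SE 0.28, adjusted p = 0.0181), and its call was lost without replicate 2 of the hybrid or of R9308 at heading or replicate 2 of R9308 at tillering (largest adjusted p = 0.0596). Os03t0276500-01 had 1922 and 1904 RPKM in the hybrid, 539 and 926 in Xieqingzao B and 1636 and 1325 in R9308 at heading. The tillering values were 658 and 222 in the hybrid, 286 and 205 in Xieqingzao B and 146 and 133 in R9308. Heading was higher in every genotype, with a log2 fold change of 2.41 (SE 0.32, adjusted p = 0.00533) that passed with any single library left out.

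Os12t0244100-02, similar to a stromal HSP70 of plastids, was higher at heading in each genotype. It had 57.3 and 61.4 RPKM in the hybrid, 54.4 and 42.6 in Xieqingzao B and 64.2 and 86.2 in R9308 at heading, and 24.7 and 19.0, 34.1 and 33.2, and 33.1 and 30.0 in the same genotypes at tillering. All 6 heading libraries were above all 6 tillering libraries (log2 fold change 1.12, SE 0.14, adjusted p = 0.00474), as were those of 1.95% of all transcripts tested. Another transcript of the locus, Os12t0244100-04, ran the other way, with 0 to 5.86 RPKM at heading against 5.42 to 36.8 at tillering. Summed over the locus, the CPM (counts scaled by library sum alone) overlapped, with 149 to 268 at heading against 101.2 to 173 at tillering, and the locus was not called. Os03t0277300-01, an HSP70 of low level whose identifier lies close to that of Os03t0276500-01, behaved like it: 1.28 to 3.55 RPKM at heading against 0.392 to 0.961 at tillering (log2 fold change 1.98, SE 0.29, adjusted p = 0.00641). Whether reads were shared between these 2 loci was not tested. The opposite direction was seen for Os03t0821100-01, similar to a non-cell-autonomous heat shock cognate protein 70, with 5.74 to 13.5 RPKM at heading against 21.5 to 61.4 at tillering (log2 fold change -1.80, SE 0.28, adjusted p = 0.00793).

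Among the factors, Os09t0456800-01, similar to the factor Spl7, rose at heading in every genotype. It had 76.0 and 62.9 RPKM in the hybrid, 63.0 and 85.6 in Xieqingzao B and 115 and 91.7 in R9308 at heading. At tillering it had 37.7 and 13.2 in the hybrid, 26.4 and 16.3 in Xieqingzao B and 43.5 and 26.6 in R9308. The lowest heading library was above the highest tillering library (log2 fold change 1.65, SE 0.30, adjusted p = 0.0118), and the call passed with any single library left out. Os02t0232000-01, similar to factor 29, also rose (log2 fold change 2.14, SE 0.28, adjusted p = 0.00483), as did Os01t0625300-01, Os04t0568700-00 and Os01t0749300-01, with log2 fold changes of 1.69, 1.25 and 1.09. These last 3 calls were each lost without at least 6 of the 12 libraries in turn, and the locus of Os01t0749300-01 was not called.

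The HSP101 transcript Os02t0297132-00 was also called (adjusted p = 0.0321), with 0.425 to 1.63 RPKM at heading and 0 to 1.01 at tillering. These are 5 to 18 counts per library at heading and 0 to 12 at tillering. The call passed in 2 of 12 fits with a library left out. Since both hybrid libraries at tillering held no counts of this transcript, no fold is given.

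Small heat shock proteins and a DnaJ transcript were among those that fell at heading. The Hsp20-domain transcripts Os10t0159700-01 and Os10t0159600-01, with neighbouring identifiers on chromosome 10, had 0.365 to 3.08 and 0.308 to 1.70 RPKM at heading against 3.75 to 13.8 and 1.74 to 11.02 at tillering. Both log2 fold changes were -2.64 (SE 0.51, adjusted p = 0.0149, and SE 0.53, adjusted p = 0.0164), and neither call held without replicate 2 of the hybrid at heading (largest adjusted p 0.0596 and 0.0618), nor that of Os10t0159600-01 without replicate 1 of Xieqingzao B or replicate 2 of R9308 at heading. Os05t0587300-01, a DnaJ-domain chaperone, had 1.39 to 4.63 RPKM at heading against 6.89 to 20.6 at tillering (log2 fold change -2.30, SE 0.35, adjusted p = 0.00711) and passed with any single library left out.

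**Figure D3:**
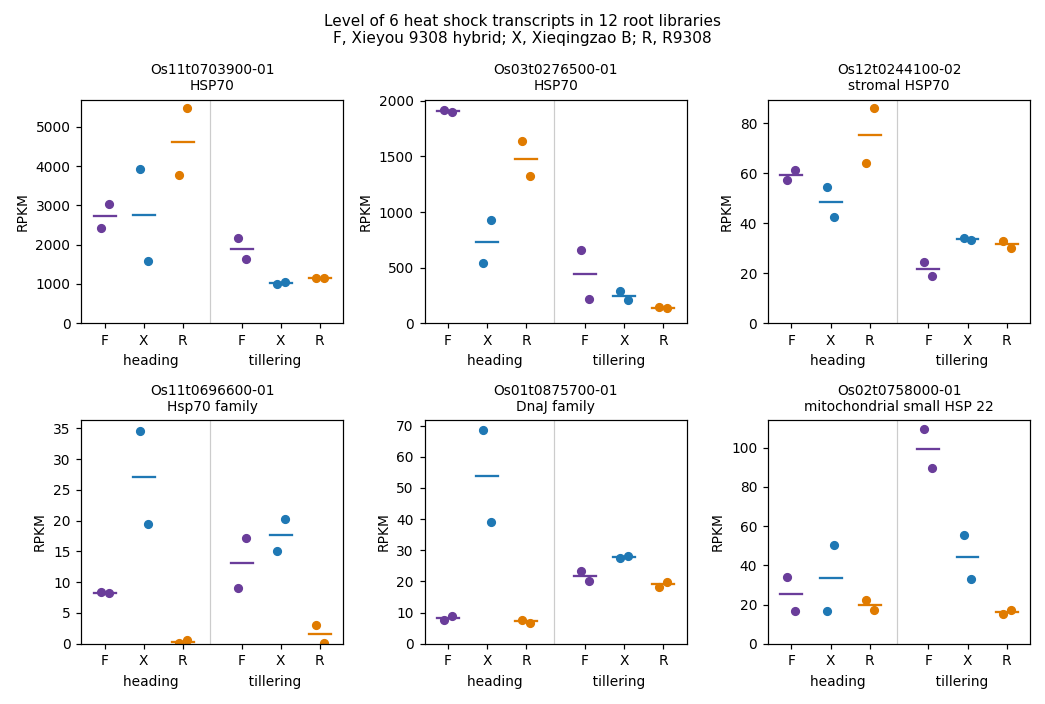
RPKM of 6 heat shock transcripts in each of the 12 libraries (points) with group means (lines), for the hybrid (F), Xieqingzao B (X) and R9308 (R). Os12t0244100-02 was higher in all heading libraries than in any tillering library, and Os11t0696600-01 was 0.128 and 0.530 RPKM in R9308 at heading.

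Tested within 1 genotype, fewer stage differences passed. In the hybrid 3 members rose and 1 fell, beside 1.68% of all transcripts (1.08% higher, 0.595% lower). In R9308 4 rose and 0 fell, beside 1.2% (0.47% higher, 0.734% lower), and in Xieqingzao B 0 of 153 passed, beside 0.088%, where 22 had an unadjusted p under 0.05 with a 2-fold difference, beside 15.9% of all transcripts, and DESeq2 called 18. In R9308 the rising members were Os03t0276500-01 (log2 fold change 3.48, SE 0.58, adjusted p = 0.0419), Os02t0527300-01, Os12t0244100-02 and Os02t0782300-01, a heat shock-like protein with 60.9 and 52.7 RPKM at heading against 19.6 and 18.5 at tillering (log2 fold change 1.64, SE 0.22, adjusted p = 0.0351). In the hybrid, Os01t0180800-03, similar to heat shock 70 kDa protein 4, fell to 27.6 and 36.1 RPKM at heading, against 109 and 214 at tillering (log2 fold change -2.20, SE 0.43, adjusted p = 0.0473). This call passed in 1 of 12 fits with a library left out, and its locus, at 356 and 295 CPM against 557 and 564, was not called. With each library left out in turn, each of the 4 calls in R9308 passed in 2 of 12 fits, those without a hybrid library at tillering. The 3 rising members of the hybrid passed in 3 of 12 fits each. No stage difference was shown to depend on the genotype: the quasi-likelihood test of the interaction called 0 members for each of the 3 genotype pairs, where the smallest adjusted p-values were 0.123 to 0.164, 13 to 30 members had an unadjusted p under 0.05 with a 2-fold difference (11.6% to 14.5% of all transcripts), and DESeq2 called 5 to 15.

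At heading, the heat shock transcripts that differed between genotypes were mostly factors and HSP70 transcripts. Between Xieqingzao B and R9308, 6 members were higher in Xieqingzao B and 6 lower of 143 tested, which is 8.39% beside 10.8% of all transcripts (4.4% higher, 6.36% lower). Between the hybrid and Xieqingzao B, 6 were higher in the hybrid and 4 lower, 6.99% beside 8.1% (5.35% higher, 2.75% lower). Between the hybrid and R9308, 2 were higher and 0 lower, 1.4% beside 0.886% (0.714% higher, 0.173% lower). By class, the factors held 4 calls among 17 tested in each comparison with Xieqingzao B, and DnaJ proteins 1 among 59. Each library enters 2 of the 3 comparisons. Of the 51 calls made in all genotype and stage comparisons, 9 passed with every library left out in turn, 7 of them for the stage over genotypes and 2 between genotypes at heading. Each of the other 42 was lost without at least 1 library, at adjusted p-values up to 0.283. For 41 of the 51, the sum over the transcripts of the locus was called in the same direction, and for 10 it was not called. Scaling by library size alone moved the median log2 fold change of all transcripts to 0.162 for Xieqingzao B over R9308 and -0.162 for the hybrid over Xieqingzao B, against 0.037 and -0.029 with TMM, and the calls numbered 11 and 9. With that scaling, 3 members were higher and 6 lower in the hybrid than in Xieqingzao B, which turns the balance of directions.

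The most abundant factor called between genotypes was Os02t0527300-01, similar to factor 31. At heading it had 117 and 98.2 RPKM in the hybrid, 11.01 and 6.80 in Xieqingzao B and 112 and 78.7 in R9308. Xieqingzao B stood below both other genotypes without overlap. The log2 fold change was 3.73 for the hybrid over Xieqingzao B (SE 0.35, adjusted p = 0.0101) and -3.54 for Xieqingzao B over R9308 (SE 0.34, adjusted p = 0.00614). With each library left out in turn, the second call passed every time, and the first was lost without either hybrid library (largest adjusted p = 0.0672). At tillering the same transcript had 106 and 31.3 RPKM in the hybrid, 17.0 and 12.7 in Xieqingzao B and 13.2 and 10.1 in R9308, so that R9308 was then at the level of Xieqingzao B. Heading over tillering in R9308 gave a log2 fold change of 3.11 (SE 0.58, adjusted p = 0.0489).

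Other factors split the parents in both directions. Os01t0733200-01, similar to factor 29, had 8.97 and 17.2 RPKM in the hybrid, 0.782 and 0.174 in Xieqingzao B and 5.36 and 3.81 in R9308 at heading. The hybrid was above Xieqingzao B (log2 fold change 4.84, SE 0.73, adjusted p = 0.0235) and Xieqingzao B below R9308 (-3.33, SE 0.70, adjusted p = 0.0402), and both calls were lost without any 1 library of R9308 or of the hybrid, the second also without replicate 2 of Xieqingzao B. At tillering its highest values, 8.91 and 14.8 RPKM, were those of Xieqingzao B, against 5.09 and 2.24 in the hybrid and 5.16 and 2.98 in R9308. Os02t0232000-01, described with the same factor 29, had the reverse order at heading: 3.32 and 6.26 RPKM in the hybrid and 18.1 and 23.2 in Xieqingzao B, beside 6.24 and 5.37 in R9308 (hybrid over Xieqingzao B, log2 fold change -1.97, SE 0.36, adjusted p = 0.0341). Xieqingzao B over R9308 gave 1.70 (SE 0.35, adjusted p = 0.0382), and both calls were lost with any single library left out. Os05t0530400-01, the annotated Spl7 factor, was high in R9308. At heading it had 11.2 and 12.1 RPKM in the hybrid, 11.7 and 8.91 in Xieqingzao B and 29.9 and 30.9 in R9308. Xieqingzao B over R9308 passed (log2 fold change -1.68, SE 0.20, adjusted p = 0.0102) except without either R9308 library (largest adjusted p = 0.0587), whereas the hybrid over R9308 did not as a transcript (-1.37, SE 0.20, adjusted p = 0.0614). With counts summed over loci, the same test did call this locus for the hybrid over R9308 (-1.38, SE 0.20, adjusted p = 0.0275). At tillering the R9308 libraries of Os05t0530400-01 (42.6 and 24.8 RPKM) were again above those of the hybrid (10.9 and 3.65) and Xieqingzao B (15.2 and 9.18), without a call. Os01t0571300-01, a factor of low level, had 2.53 and 4.90 RPKM in the hybrid at heading against 0.846 and 0.628 in Xieqingzao B (log2 fold change 2.44, SE 0.49, adjusted p = 0.0438, not called with any single library left out).

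**Figure D4:**
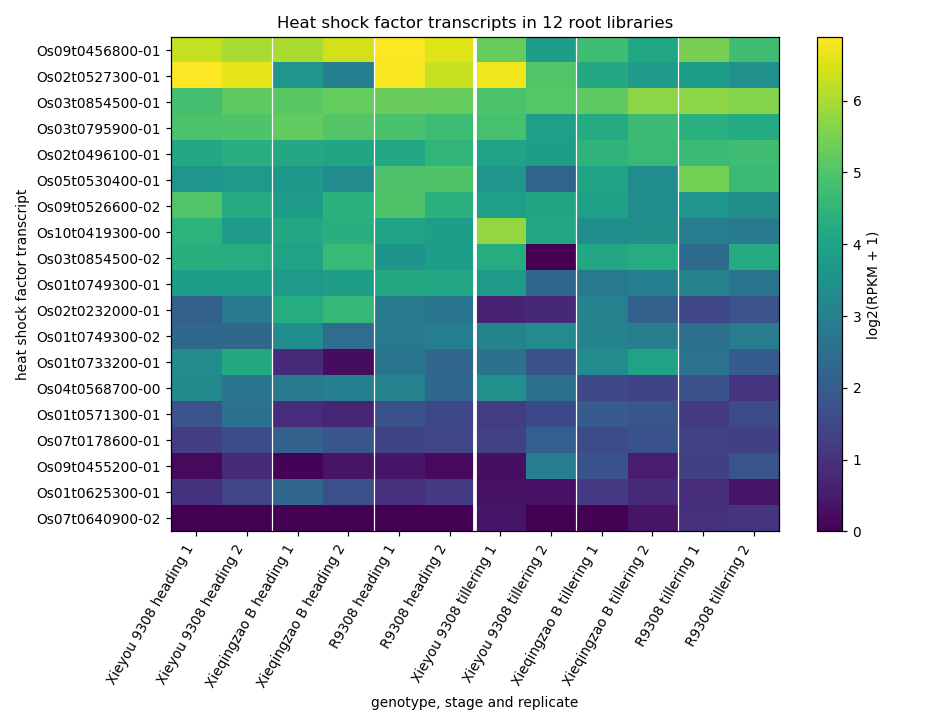
Log2(RPKM + 1) of the 19 heat shock factor transcripts (rows, by mean level) in the 12 libraries (columns; heading left, tillering right; Xieyou9308, Xieqingzao B and R9308 within each). Os02t0527300-01 is dark in Xieqingzao B at heading (11.01 and 6.80 RPKM), and Os09t0456800-01 is brighter at heading in each genotype.

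Of the factor-binding proteins, which in animals attenuate heat shock factors, one was called between the parents. Os06t0274000-01, similar to heat shock factor binding protein 2, had 23.0 and 28.5 RPKM in the hybrid, 15.9 and 11.5 in Xieqingzao B and 32.1 and 30.4 in R9308 at heading. Xieqingzao B was below R9308 (log2 fold change -1.31, SE 0.26, adjusted p = 0.0343), a call lost without 5 of 6 libraries in turn (largest adjusted p = 0.141). Its tillering values of 42.5 and 72.6 RPKM in the hybrid, 12.3 and 12.2 in Xieqingzao B and 28.6 and 37.2 in R9308 kept Xieqingzao B lowest, without a call (hybrid over Xieqingzao B, adjusted p = 0.314). Os09t0375100-01, the annotated heat shock factor-binding protein 1, had between 10.4 and 15.7 RPKM in all heading libraries, and no comparison called it.

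In the HSP70 class, Os11t0696600-01 was nearly absent from R9308 at heading. It had 8.41 and 8.17 RPKM in the hybrid, 34.6 and 19.4 in Xieqingzao B and 0.128 and 0.530 in R9308. The log2 fold change was 6.18 for Xieqingzao B over R9308 (SE 0.62, adjusted p = 0.00661), which passed with any single library left out, and 4.61 for the hybrid over R9308 (SE 0.60, adjusted p = 0.0448), which was lost without 5 of 6 libraries in turn (largest adjusted p = 0.219). At tillering R9308 had 3.00 and 0.109 RPKM, against 9.12 and 17.2 in the hybrid and 15.0 and 20.3 in Xieqingzao B, and these differences did not pass. Reads were mapped to the Nipponbare genome, and a low level of one allele or poor mapping of it cannot be told apart here. Os12t0569700-01, similar to the non-cell-autonomous cognate HSP70, was also highest in Xieqingzao B, with 2.59 and 2.39 RPKM in the hybrid, 7.62 and 6.23 in Xieqingzao B and 1.07 and 1.57 in R9308 (Xieqingzao B over R9308, log2 fold change 2.26, SE 0.29, adjusted p = 0.0119), a call lost without replicate 1 of R9308 (adjusted p = 0.0656). The abundant Os03t0276500-01 was higher in the hybrid than in Xieqingzao B at heading (log2 fold change 1.52, SE 0.33, adjusted p = 0.0493), as was its neighbour Os03t0277300-01 (1.43, SE 0.30, adjusted p = 0.0457). The call of Os03t0276500-01 was lost without 5 of 6 libraries in turn and that of Os03t0277300-01 without any 1 library.

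Of the other chaperones, the DnaJ transcript Os01t0875700-01 was raised in Xieqingzao B at heading. It had 7.68 and 8.82 RPKM in the hybrid, 68.7 and 39.1 in Xieqingzao B and 7.63 and 6.70 in R9308, with no overlap between Xieqingzao B and the rest. The log2 fold change was -2.58 for the hybrid over Xieqingzao B (SE 0.32, adjusted p = 0.017) and 2.79 for Xieqingzao B over R9308 (SE 0.33, adjusted p = 0.00968). The first call was lost without either hybrid library (largest adjusted p = 0.123) and the second without either R9308 library (0.0655). At tillering the genotypes lay between 18.2 and 28.1 RPKM. Os06t0163000-03, similar to the stress-inducible co-chaperone STI that links HSP70 with HSP90, had 1.13 and 1.97 RPKM in Xieqingzao B at heading against 3.96 and 6.09 in R9308 (log2 fold change -1.82, SE 0.39, adjusted p = 0.0419), a call lost without 5 of 6 libraries in turn. Its sister transcript Os06t0163000-01 ran the other way, with 12.6 and 10.1 RPKM in Xieqingzao B against 6.98 and 7.32 in R9308. The locus overlapped, at 39.1 and 34.9 CPM in Xieqingzao B against 32.4 and 40.2 in R9308, and was not called. Os05t0529700-01, annotated as a heat shock protein binding protein, had 0.475 and 0.165 RPKM in the hybrid and 4.504 and 6.01 in Xieqingzao B (log2 fold change -3.85, SE 0.68, adjusted p = 0.0324). The HSP90-class transcript Os09t0534600-01 was scarce, with 0.268 and 0.558 RPKM in the hybrid, 0.0269 and 0 in Xieqingzao B and 0.417 and 0.862 in R9308. It was lower in Xieqingzao B than in R9308 (log2 fold change -5.27, SE 1.08, adjusted p = 0.0371), and the same order was seen at tillering. The calls of Os05t0529700-01 and Os09t0534600-01 were lost with any 1 of the 6 libraries left out (largest adjusted p 0.164 and 0.144).

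A small heat shock protein locus, Os01t0135900, carried different transcripts in different genotypes while its sum overlapped. Its pattern over transcripts was singled out after the values were seen. Transcript Os01t0135900-04 had 31.2 and 63.5 RPKM in the hybrid, 71.1 and 29.9 in Xieqingzao B and 0 and 0 in R9308 at heading. With a floor of 3 counts per library for R9308, the hybrid was higher by at least 127.6-fold (adjusted p = 0.0447) and Xieqingzao B by at least 136-fold (adjusted p = 0.0121). Both calls were lost without either R9308 library, the first also without either hybrid library. Transcript Os01t0135900-02 had 0 and 0 RPKM in the hybrid, 1.75 and 0 in Xieqingzao B and 40.6 and 38.4 in R9308. It was at least 100.3-fold lower in the hybrid than in R9308 by the same floor, but its test did not pass (adjusted p = 0.106). Over the whole locus the CPM at heading were 30.7 and 66.0 in the hybrid, 66.2 and 26.6 in Xieqingzao B and 33.9 and 32.0 in R9308. The groups overlapped for the locus, so the difference lay in which annotated transcript the reads were given to. At tillering the R9308 libraries again held mostly Os01t0135900-02 (96.6 and 29.1 RPKM) and less of Os01t0135900-04 (12.0 and 6.08).

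**Figure D5:**
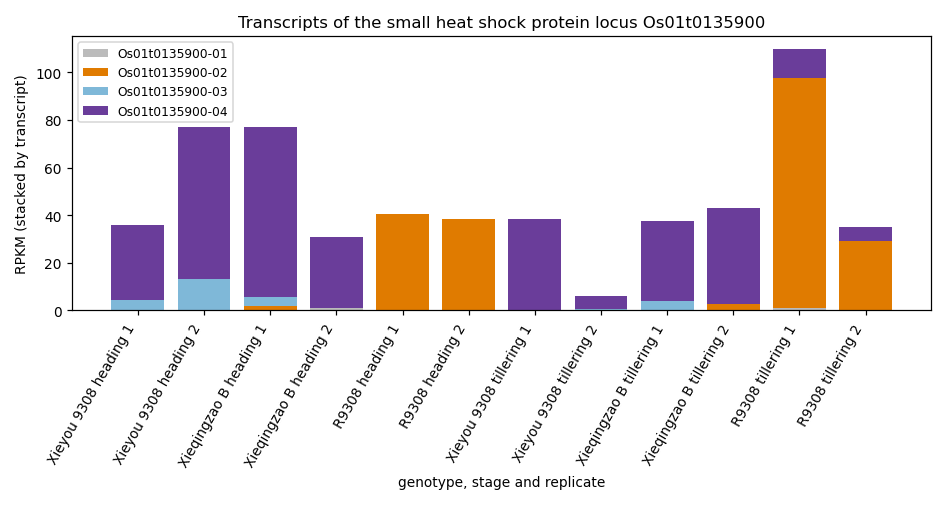
RPKM of the 4 transcripts of Os01t0135900 stacked for each of the 12 libraries, with heading left and tillering right. Os01t0135900-04 had 31.2 and 63.5 RPKM in the hybrid at heading and 0 in both R9308 libraries, where Os01t0135900-02 had 40.6 and 38.4.

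At tillering no heat shock transcript passed the quasi-likelihood test on the 6 tillering libraries in any genotype comparison. Of 148 members tested, 0 were called for the hybrid over R9308, beside 0.0106% of all transcripts, 0 for the hybrid over Xieqingzao B, beside 0%, and 0 for Xieqingzao B over R9308, beside 0.0246%. At an unadjusted p under 0.05 with a 2-fold difference there were 27, 17 and 12 members in this order, or 18.2%, 11.5% and 8.11%, beside 15.8%, 7.83% and 8.58% of all transcripts. Without any 1 library the counts of calls stayed at 0. DESeq2 called 22, 6 and 2, the exact test with tagwise dispersions 13, 1 and 4, and 1 fit of all 12 libraries 12, 1 and 0, all of them higher in the hybrid. For the hybrid over R9308, 21 of the 27 were higher in the hybrid and 6 lower, while over all transcripts 1899 were higher (6.68%) and 2604 lower (9.16%). The HSP90 class held 6 of the 21 among 11 tested, 2 of which carry the same counts, and HSP70 held 6 among 24.

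The member with the smallest unadjusted p in that comparison was Os02t0758000-01, the mitochondrial small heat shock protein 22. It had 109 and 89.4 RPKM in the hybrid, 55.7 and 33.1 in Xieqingzao B and 15.0 and 17.4 in R9308 at tillering. The 3 genotypes did not overlap, but the difference did not pass for the hybrid over R9308 (log2 fold change 2.57, SE 0.39, adjusted p = 0.154) or over Xieqingzao B (1.15, SE 0.37, adjusted p = 0.496). At heading the genotypes overlapped, between 16.6 and 50.5 RPKM. Os01t0180800-03 had 109 and 214 RPKM in the hybrid, 66.1 and 48.8 in Xieqingzao B and 19.6 and 27.3 in R9308 at tillering (hybrid over R9308, log2 fold change 2.71, SE 0.44, adjusted p = 0.155). The STI transcript Os02t0644100-01 had 173 and 145 RPKM in the hybrid, 113 and 101.3 in Xieqingzao B and 46.1 and 73.2 in R9308 (hybrid over R9308, 1.37, SE 0.37, adjusted p = 0.209). Against both parents together, 31 of 186 members with counts had both hybrid libraries above all 4 parent libraries at tillering (16.7%, beside 9.65% of all transcripts), and 16 below (8.6%, beside 10.7%). At heading 13 of 185 were above (7.03%, beside 10.2%) and 18 below (9.73%, beside 11.5%).

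In the opposite direction at tillering, the DnaJ transcript Os06t0650900-02 had 9.77 and 11.9 RPKM in the hybrid, 30.8 and 27.5 in Xieqingzao B and 58.9 and 24.7 in R9308 (hybrid over R9308, log2 fold change -1.999, SE 0.48, adjusted p = 0.185). The very scarce DnaJ transcript Os11t0578500-01 had no counts in either R9308 library at either stage, against 8 and 12 counts in the hybrid and 13 and 8 in Xieqingzao B at tillering, so it was at least 4.07-fold and 4.19-fold higher there by the floor of 3 counts per library, without a call. Os10t0575200-02, similar to the heat shock protein binding protein GRV2, had no counts in the hybrid at tillering, against 0.961 and 0.270 RPKM in Xieqingzao B and 1.63 and 2.58 in R9308. Another transcript of this locus, Os10t0575200-03, had 12.6 and 24.2 RPKM in the hybrid at tillering. It had 12.4 and 5.43 in Xieqingzao B and 14.5 and 7.73 in R9308. The genotypes overlapped for the whole locus, with 207 and 109 CPM in the hybrid. Xieqingzao B had 162 and 210 CPM there, and R9308 148 and 190.

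Several abundant members varied between the 2 roots of a group as much as between groups. The DnaJ transcript Os04t0549600-01, with 24.3% of the DnaJ sum, had 401 and 30.9 RPKM in the hybrid at tillering, and 252 and 96.5 in Xieqingzao B at heading. The HSP90 transcript Os09t0482100-01 had 708 and 742 RPKM in the hybrid, 1701 and 754 in Xieqingzao B and 773 and 1276 in R9308 at heading. At tillering it had 1020.1 and 954 in the hybrid, 658 and 784 in Xieqingzao B and 424 and 482 in R9308, an order without overlap that did not pass (hybrid over R9308, log2 fold change 1.07, SE 0.40, adjusted p = 0.273). Os08t0500700-01, also similar to heat shock protein 82, had 597 and 239.7 RPKM in the hybrid, 203 and 246 in Xieqingzao B and 72.9 and 102 in R9308 at tillering, where the hybrid and Xieqingzao B overlapped. The HSP101 transcript Os03t0426900-01 had 8.91 and 13.0 RPKM in the hybrid, 17.2 and 16.1 in Xieqingzao B and 5.97 and 13.5 in R9308 at heading, and no comparison called it. Other transcripts spanned narrower ranges. The DnaJ transcript Os03t0752700-01 lay between 51.2 and 62.7 RPKM in the 6 heading libraries and between 30.7 and 52.3 in the 6 tillering libraries. The factor Os03t0854500-01 lay between 27.2 and 50.6 RPKM over all 12, but at tillering the hybrid was below both parents without overlap. It had 29.6 and 32.6 there in the hybrid, 34.8 and 50.6 in Xieqingzao B and 50.6 and 47.8 in R9308. Another transcript of its locus, Os03t0854500-02, had 0 to 24.5 RPKM, with 18.3 and 0 in the hybrid at tillering. The whole locus had 66.8 to 133 CPM.

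Other genes of protein folding were listed by words in their descriptions, as chaperonins, DnaJ proteins without the words heat shock, endoplasmic reticulum folding proteins, prolyl isomerases and ubiquitin-conjugating enzymes, with a few smaller groups. Of these 227 transcripts, 201 were tested between stages over the 3 genotypes. At heading 5 rose and 16 fell, 10.4% in all, beside 11.2% of all transcripts (4.02% higher and 7.18% lower). Chaperonins, barrel-shaped folding machines of plastids, mitochondria and cytosol, had 0 higher and 5 lower among 30 tested. Calnexin, calreticulin and disulfide isomerases, which fold secreted proteins, had 0 higher and 3 lower among 22, and prolyl isomerases 2 higher and 3 lower among 50. At heading, 12 of 189 were called between Xieqingzao B and R9308 (6.35%, beside 10.8% of all transcripts), 8 between the hybrid and Xieqingzao B (4.23%, beside 8.1%) and 1 between the hybrid and R9308 (0.529%, beside 0.886%).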

How the data were processed

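Poly-A RNA of 12 roots was read in pairs. After quality trimming the authors aligned reads to Nipponbare (IRGSP build 5.0) using RSEM 1.1.11, and their deposited counts are whole numbers for each transcript, not normalized. The deposited RPKM values equal these counts over transcript length and the library's sum. Columns with the authors' edgeR log2 fold changes, p-values and FDR between genotypes were not used. RSEM divides reads between similar transcripts and the sources used here do not state that strand was kept, so that paralogs, transcripts of a locus and antisense partners can exchange reads.

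The quasi-likelihood test of edgeR 4.0.16 (with limma 3.58.1, R 4.3.3) was applied to the counts, filtered with filterByExpr and scaled by TMM, over 6 libraries for genotypes within a stage and over 12 for stages and interactions. P-values were adjusted by Benjamini-Hochberg over all transcripts tested. SE is the log2 fold change over the root of F. Of 196 members, 143 were tested at heading, 148 at tillering and 153 over both stages, and 42 in none. The assigned counts of 8209696 to 15830233 per library and the 2 roots per group limit the precision, with 2.543 to 2.611 prior degrees of freedom. A count of 0 was taken as up to 3 counts, for counting error only. Alternatives were DESeq2 1.42.0, exact tests with tagwise dispersions, other scalings and filters, a replicate block, sums over loci, 1 fit of 12 libraries and leaving out each library. The fits were tested on simulated data. Python 3.11.15 with pandas 2.3.3, numpy 2.4.6 and matplotlib 3.10.9 served for the rest.

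Groups were taken from the genotype and stage in the labels. The members and lists were chosen with earlier results of these data known. Named with values are up to 4 most abundant members per class, up to 4 called members per direction and comparison whose libraries do not overlap, without calls up to 2 per direction with the smallest p, and members the study's QTL supplement lists. Others named were chosen after their values were seen. Descriptions are those deposited, and no sequence of the members was used here.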

Additional observations from a re-analysis of the deposited data

Results flagged for a closer look

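For 11 members both libraries at heading lay above both at tillering in one genotype and below them in another, so that the stage difference ran in opposite directions. Values are log2 ratios of mean RPKM, heading over tillering. With edgeR's quasi-likelihood test of the interaction, 0 of the 14 pairs passed (adjusted p between 0.123 and 0.637), while DESeq2 gave an adjusted p of at most 0.05 for 8 of them.

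Among the factors, Os01t0733200-01 had 1.84 in the hybrid and -4.64 in Xieqingzao B (DESeq2 adjusted p = 5.08e-07). Os01t0571300-01 had 1.18 in the hybrid and -1.90 in Xieqingzao B, and Os02t0527300-01 had -0.74 in Xieqingzao B and 3.03 in R9308.

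In the HSP70 class, Os02t0774300-01, the mitochondrial HSP70, had -0.37 in the hybrid, 0.44 in Xieqingzao B and 0.67 in R9308. Os01t0180800-01 had -0.56 in Xieqingzao B and 0.65 in R9308. Os12t0569700-01 had -0.96 in the hybrid, 0.29 in Xieqingzao B and -0.84 in R9308. The abundant HSP90 transcript Os09t0482100-01 had -0.45 in the hybrid and 1.18 in R9308, and the co-chaperone Os02t0644100-01 had -1.06 in the hybrid and 0.55 in R9308.

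The DnaJ transcript Os01t0875700-01 had -1.41 in the hybrid, 0.95 in Xieqingzao B and -1.41 in R9308, and Os06t0650900-02 had 0.68 in the hybrid and -2.29 in R9308. Over the locus of Os06t0650900-02 the stages overlapped in the hybrid, at 17.5 and 19.7 CPM at heading against 14.6 and 18.2 at tillering. In R9308 that locus stayed lower at heading, with 12.3 and 5.53 CPM against 57.6 and 28.1. The small heat shock protein Os03t0266300-03 had 1.71 in Xieqingzao B and -0.86 in R9308. In R9308 its sister transcript Os03t0266300-02 ran the other way, with 44.0 and 9.29 RPKM at heading against 0 and 0.894 at tillering. Summed over this locus, the stages overlapped in R9308, at 50.2 and 38.7 CPM at heading against 39.4 and 32.5 at tillering. In Xieqingzao B the locus stayed higher at heading, with 40.5 and 107 CPM against 35.2 and 15.3.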

How the results depend on the processing

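All 33 called results of members named by rule kept their direction under each alternative fitted per transcript, and 7 of them kept their call there. Sums over loci were not among these alternatives. With them, the locus of Os12t0244100-02, whose stage difference over genotypes is 1 of these 7 results, was not called. With DESeq2 the members called numbered 5 for the hybrid over R9308 at heading, 18 for the hybrid over Xieqingzao B at heading, and 22, 6 and 2 at tillering for the hybrid over R9308, the hybrid over Xieqingzao B and Xieqingzao B over R9308. For heading over tillering DESeq2 called 23 in the hybrid, 18 in Xieqingzao B, 29 in R9308 and, for interactions of any pair, 22. The exact test called 6 and 21 for the hybrid over R9308 and over Xieqingzao B at heading, 13, 1 and 4 at tillering, and 11, 9 and 11 for the stage in the hybrid, Xieqingzao B and R9308. Without a low-count filter there were 6 for the hybrid over Xieqingzao B at heading and 2 each for the stage in the hybrid and in R9308. At heading, sums over loci gave 3 for the hybrid over R9308 (1 higher, 2 lower) and 18 for the hybrid over Xieqingzao B. For the stage they gave 8, 5 and 8 in the hybrid, Xieqingzao B and R9308. One fit of all 12 libraries called 0 for the hybrid over R9308 at heading, and 12 and 1 at tillering for the hybrid over R9308 and over Xieqingzao B.

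With a replicate block, 0, 1 and 6 members were called at heading for the hybrid over R9308, the hybrid over Xieqingzao B and Xieqingzao B over R9308, and 0 and 1 for the stage in the hybrid and in R9308. The correlations of replicate differences between genotypes lay between -0.355 and 0.0429, so libraries of equal replicate number did not clearly vary together. Negative values would also arise if libraries of unequal number varied together, and that was not tested.

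Leaving out 1 library gave 0 to 4 calls for the hybrid over R9308 (4 without Xieqingzao B replicate 2, 0 without any library of the hybrid or R9308), 0 to 6 for the hybrid over Xieqingzao B (0 without either hybrid library, 2 without either R9308 library, 4 and 6 without Xieqingzao B replicates 1 and 2) and 2 to 12 for Xieqingzao B over R9308 at heading (2 without R9308 replicate 1, 3 without its replicate 2 and 6 without either hybrid library), and 0 in every tillering comparison. For the stage it gave 0 to 30 in the hybrid (30 without its replicate 1 at tillering, at most 2 without any other library), 0 to 6 in Xieqingzao B (6 without hybrid replicate 1 and 5 without hybrid replicate 2 at tillering), 0 to 14 in R9308 (14 without either hybrid library at tillering, otherwise 0), 10 to 30 over genotypes (30 without hybrid replicate 1 at tillering, 10 to 12 without hybrid replicates 1 or 2 or R9308 replicate 2 at heading, or replicate 2 of Xieqingzao B or R9308 at tillering), and 0 to 13 interactions (13 without hybrid replicate 1 at tillering). A lone library was then assumed to vary like the other groups. Class ratios moved by more than the spread between replicates in 4 of 80 cases with RPKM over the TMM factor, and in 39 of 80 as differences of mean log2(RPKM + 1). Small heat shock proteins, at a median of 0.689 RPKM, had 19 of 39 transcripts too scarce to test at this depth.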
